A study of Mus musculus with 6 samples.

Results

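Chemokines are small secreted proteins that direct the movement of leukocytes, and their receptors are G protein-coupled receptors on the surface of the responding cells. The families CC, CXC, CX3C and XC are named for the spacing of the first cysteines of the ligand. CXC ligands with the ELR motif act on neutrophils through Cxcr2, the interferon-induced ligands Cxcl9, Cxcl10 and Cxcl11 act on T and natural killer cells through Cxcr3, and Ccl2 and Ccl7 draw Ccr2-bearing monocytes out of the bone marrow. In liver, stromal and endothelial cells make Cxcl12, which retains Cxcr4-bearing haematopoietic cells, while injured hepatocytes, endothelium and resident macrophages can make the inflammatory ligands.

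Members were the entries of the deposited gene table whose symbol begins with Ccl, Cxcl, Ccr, Cxcr, Cx3c, Xcl or Xcr (followed by a digit or, for Ccr, the letter l), with at least 10 reads summed over all libraries. Of 24489 gene entries, 71 matched by symbol and 45 had at least 10 reads, of which 27 were ligands and 18 receptors. Polyadenylated RNA had been sequenced from a liver lobe of untreated mouse pups at postnatal day 10 on a mixed C3H/C57bl6J background. There were 3 libraries of pups homozygous for the Nodder missense allele of the Notch ligand gene Jag1 (Jag1Ndr/Ndr), used as a model of Alagille syndrome, a disease with few bile ducts, and 3 libraries of wild-type Jag1+/+ pups. The Nodder allele is a germline change present in all cells, so no cell type is singled out by the genotype, and the labels do not state whether each library is a separate animal; if some are not, the spread measured here is in part technical.

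The libraries held 12992592 to 59653111 counted reads, so that a count of 0 allows between 0.0421 and 0.266 CPM (3 reads, counting error only). CPM here are read counts relative to the library total after scaling by edgeR's TMM factors. The second principal component spread the Jag1Ndr/Ndr libraries to both sides of the Jag1+/+ ones. Jag1Ndr/Ndr replicates 1, 2 and 3 lay at 46.7, -43.6 and -19.9, against 2.14 to 7.35 for Jag1+/+. By Xist and Y-linked reads, Jag1+/+ replicate 1 and Jag1Ndr/Ndr replicates 2 and 3 were female and the other libraries male, so sex was unevenly spread over the genotypes. Markers of hepatocytes, sinusoidal endothelium, stellate cells and cholangiocytes were all detected, as liver tissue holds them. The RNA is bulk, so more cells of a type and more RNA per cell cannot be told apart in any value below.

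Of the 45 members, 32 passed edgeR's filter on low counts and were tested, and 13 were not. Among those tested, 11 were higher in Jag1Ndr/Ndr livers and 1 was lower (quasi-likelihood test of edgeR, Benjamini-Hochberg adjusted p under 0.05 over all 13819 genes tested). Over all genes tested, 7.63% were called, 4.73% higher and 2.90% lower. At an unadjusted p under 0.05 the share over all genes was 22.5% (1800 genes of 13819 higher), and DESeq2 called 13.7% (8.23% higher), against which the counts by those rules below are to be read. The higher members were the ligands Cxcl1, Ccl2, Ccl7, Ccl3, Ccl6, Cxcl10 and Cx3cl1 and the receptors Ccr1, Cxcr2, Ccr2 and Ccrl2, and the lower one was Cxcl12. The median log2 fold change (Jag1Ndr/Ndr over Jag1+/+) of the tested members was 0.52, that of the 18 tested ligands 0.73 and that of the 14 tested receptors 0.01, beside 0.00 for all genes tested. Ccl3 and Ccl7 exceeded the filter's minimum of 0.401 CPM in Jag1Ndr/Ndr libraries only, so the filter itself favoured a difference for them. Of the 25 members above that minimum in all 6 libraries, 9 were called higher and 1 lower. In all 12 called members the genotypes did not overlap. Among the tested members, 13 had all Jag1Ndr/Ndr libraries above and 2 had them all below the Jag1+/+ libraries, against 14.8% and 14.2% of all genes tested.

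**Figure D1:**
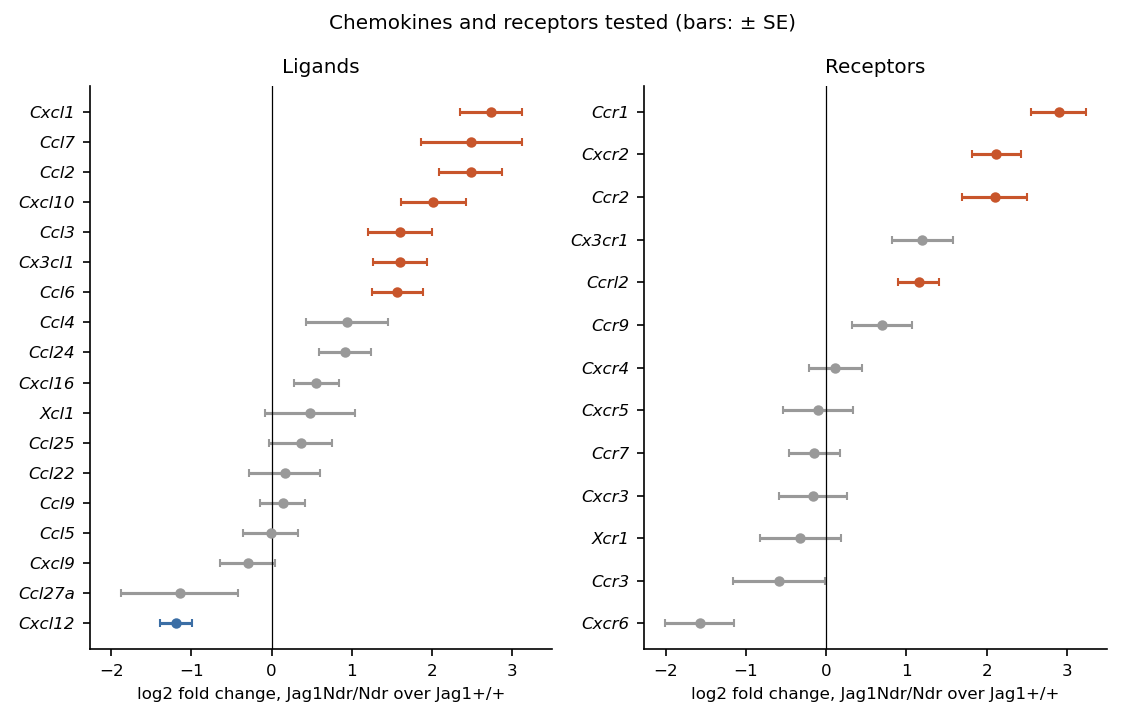
Log2 fold change of Jag1Ndr/Ndr over Jag1+/+ (x axis, with bars of ± 1 SE) for the 18 ligands and for 13 of the 14 receptors tested; orange marks members called higher, blue the member called lower, grey those not called. Ligands run from -1.19 for Cxcl12 to 2.73 for Cxcl1 and receptors from -1.58 for Cxcr6, which was not called, to 2.90 for Ccr1.

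The calls differed with the library left out. With Jag1+/+ replicate 1, 2 or 3 left out, 6, 3 and 4 members were called, and 9, 10 and 9 of the 12 remained called without Jag1Ndr/Ndr replicate 1, 2 or 3. With sex as a covariate 5 members were called, namely Cxcl1, Ccl2, Cxcl12, Ccr1 and Cxcr2. Cxcl1, Ccr1 and Cxcr2 kept their calls under all 13 alternatives run, with largest adjusted p-values of 0.0393, 0.0266 and 0.0411.

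The neutrophil-attracting ELR ligands were led by Cxcl1 (chromosome 5, positions 90891245 to 90893121 of GRCm38). Cxcl1 measured 2.78, 1.98 and 2.30 CPM in Jag1+/+ replicates 1, 2 and 3, and 19.1, 19.97 and 7.41 CPM in Jag1Ndr/Ndr replicates 1, 2 and 3. All Jag1Ndr/Ndr libraries were at least 2.67-fold above the highest Jag1+/+ library, and replicate 3 was the lowest of them. Cxcl1 rose 6.64-fold, a log2 fold change of 2.73 ± 0.39 (SE; edgeR adjusted p = 0.00722). Its neighbour Cxcl2, which binds the same receptor, had too few reads to be tested, with 1, 5 and 3 reads in the Jag1+/+ and 5, 65 and 9 reads in the Jag1Ndr/Ndr libraries. These came to 0.0579, 0.162 and 0.0775 CPM and to 0.443, 0.912 and 0.480 CPM, so the genotypes did not overlap. Without the filter, the log2 fold change of Cxcl2 was 2.62 ± 0.58 (edgeR adjusted p = 0.0228). Cxcl5, the third ELR ligand with at least 10 reads, measured 0.0258 to 0.162 CPM in Jag1+/+ and 0.323 to 0.532 CPM in Jag1Ndr/Ndr libraries, and did not pass without the filter (edgeR adjusted p = 0.107). Cxcl3 and Cxcl15 had 4 and 0 reads in all.

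Their receptor Cxcr2 (chromosome 1, positions 74153994 to 74161246) moved the same way. Cxcr2 measured 3.07, 2.63 and 3.10 CPM in the Jag1+/+ libraries and 7.53, 16.7 and 13.7 CPM in Jag1Ndr/Ndr replicates 1, 2 and 3. Here Jag1Ndr/Ndr replicate 1 was the lowest mutant library, whereas for Cxcl1 it lay close to the highest. Cxcr2 rose 4.35-fold (log2 fold change 2.12 ± 0.30, edgeR adjusted p = 0.00764). Cxcr1, the related receptor, had 4 reads in all. Neutrophil markers, a list that also holds granule genes made by precursors such as Mpo and Elane, were higher too. Of the 9 found, 6 passed over all genes and none was lower. Their summed level was 621 to 749 CPM in Jag1+/+ and 1070 to 2344 CPM in Jag1Ndr/Ndr libraries. The order of the Jag1Ndr/Ndr libraries was the same for the summed markers as for Cxcr2, with replicate 1 lowest and replicate 2 highest. Taken singly, Csf3r and Elane departed from this order, with replicate 3 lowest, and the other markers found kept it. For Ngp and Camp, Jag1Ndr/Ndr replicate 1 lay within the Jag1+/+ range. Of the leading markers, Retnlg and Csf3r kept their calls under all 13 alternatives, while S100a8 and S100a9 lost theirs without Jag1+/+ replicate 2 (adjusted p = 0.0766 and 0.0626) or 3 (0.0727 and 0.0619). The part of these cells in the Cxcr2 value was not tested.

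The stretches before the start sites of Cxcl1, Cxcl2, Cxcl10 and Ccr1 are printed as examples of members that were higher in all Jag1Ndr/Ndr libraries and hold a match to the NF-kB consensus, the binding sequence of the transcription factors that drive many inflammatory chemokines. Each shows the 250 bases before the annotated start, 5′ to 3′ on the gene's strand, from RefSeq on GRCm38.p6, and the capitals mark matches to the consensus on either strand, run together where they overlap. Ccrl2 also meets this description and is not printed. Ccl20 holds a match too and is not printed. Its order is uncertain, as Jag1Ndr/Ndr replicate 3 had 1 read (0.0533 CPM) against 1 read in Jag1+/+ replicate 3 (0.0258 CPM). The windows are chr5:90890995-90891244 (plus strand) for Cxcl1, chr5:90903649-90903898 (plus) for Cxcl2, chr5:92348890-92349139 (minus) for Cxcl10 and chr9:123968693-123968942 (minus) for Ccr1.
Cxcl1: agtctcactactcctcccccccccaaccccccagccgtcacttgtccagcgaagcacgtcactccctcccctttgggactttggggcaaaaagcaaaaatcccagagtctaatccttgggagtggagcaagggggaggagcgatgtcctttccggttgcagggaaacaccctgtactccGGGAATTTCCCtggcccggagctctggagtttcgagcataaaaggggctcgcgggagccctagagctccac
Cxcl2: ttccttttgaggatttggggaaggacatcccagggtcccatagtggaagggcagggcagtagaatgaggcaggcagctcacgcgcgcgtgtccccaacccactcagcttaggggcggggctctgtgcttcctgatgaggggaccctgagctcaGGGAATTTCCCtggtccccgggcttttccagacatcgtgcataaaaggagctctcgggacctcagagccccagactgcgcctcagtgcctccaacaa
Cxcl10: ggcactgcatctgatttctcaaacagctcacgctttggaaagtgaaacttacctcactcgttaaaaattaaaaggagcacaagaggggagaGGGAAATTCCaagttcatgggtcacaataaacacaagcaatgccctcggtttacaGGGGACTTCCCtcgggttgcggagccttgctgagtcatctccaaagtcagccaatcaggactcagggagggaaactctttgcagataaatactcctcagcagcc
Ccr1: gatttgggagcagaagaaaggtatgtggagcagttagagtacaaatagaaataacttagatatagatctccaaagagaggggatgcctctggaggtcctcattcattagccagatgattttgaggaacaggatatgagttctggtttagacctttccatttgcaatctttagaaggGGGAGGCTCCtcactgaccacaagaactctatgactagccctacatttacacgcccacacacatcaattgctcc

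Cxcl1 and Cxcl2 hold the same run, GGGAATTTCCC, in which matches on the opposite strands overlap; it begins 71 bases before the start in Cxcl1 and 97 bases before it in Cxcl2. Cxcl10 holds 2 separate runs, GGGAAATTCC and GGGGACTTCCC, and Ccr1 holds GGGAGGCTCC from 74 bases before its start. Of the 45 members, 32 had a promoter in the RefSeq table, and 10 of these 32 (31.3%) held a match in the 300 bases from 250 before to 50 after the start, counting any of a gene's listed starts. Over all 27025 genes of the table the share was 9.55%. Among the called members with a promoter, 4 of 10 held a match (Cxcl1, Cxcl10, Ccrl2 and Ccr1), and 3 of 13 members tested and not called did. Ccl2 and Ccl7 had no entry in the table. A match describes letters in a window and does not show that a factor binds there.

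Of the interferon-induced ligands, Cxcl10 was higher and Cxcl9 was not. Cxcl10 (chromosome 5, positions 92346638 to 92348889) measured 8.05, 8.40 and 5.86 CPM in Jag1+/+ and 36.3, 41.1 and 12.4 CPM in Jag1Ndr/Ndr replicates 1, 2 and 3. Jag1Ndr/Ndr replicate 3 was again the lowest of its genotype, 1.48-fold above the highest Jag1+/+ library. Cxcl10 rose 4.04-fold (log2 fold change 2.02 ± 0.41, edgeR adjusted p = 0.0242), but its adjusted p rose to 0.0862, 0.0832, 0.101 and 0.0532 on leaving out Jag1+/+ replicates 1, 2 and 3, or Jag1Ndr/Ndr replicate 1, and of 0.0550 with sex as a covariate. Cxcl9, which lies next to it, measured 10.7, 11.5 and 6.35 CPM in Jag1+/+ and 6.65, 11.3 and 4.85 CPM in Jag1Ndr/Ndr libraries, and the genotypes overlapped (log2 fold change -0.30 ± 0.35, edgeR adjusted p = 0.685). The ratio of Cxcl10 to Cxcl9 in the deposited RPKM, taken within a library so that depth and scaling cancel, was 1.995, 1.93 and 2.44 in Jag1+/+ and 14.4, 9.64 and 6.76 in Jag1Ndr/Ndr libraries. All mutant ratios exceeded all wild-type ratios (two-sided exact permutation p = 0.1, the smallest that 3 against 3 allows). Cxcl11 had 14 reads in the Jag1+/+ and 6 in the Jag1Ndr/Ndr libraries, for which the ratio of the rates was 0.367 (95% exact interval 0.116 to 1.02, counting error only), and was not tested. Art3 overlaps the annotated spans of Cxcl10 and Cxcl11, and the kit does not mark strand, so reads from the shared bases cannot be told apart.

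Cxcr3, the receptor of these ligands, measured 1.03 to 2.34 CPM in Jag1+/+ and 0.853 to 2.02 CPM in Jag1Ndr/Ndr libraries (log2 fold change -0.16 ± 0.43, edgeR adjusted p = 0.877). Of 12 interferon response genes, 11 were tested and edgeR called 0 of them, with 1 higher at an unadjusted p under 0.05 and 0 called by DESeq2. Their median log2 fold change was 0.13, and their most abundant members, the transducer Stat2 and the interferon gamma receptor subunit Ifngr1, had log2 fold changes of -0.16 ± 0.20 and 0.46 ± 0.20. T cell markers summed to 9.81 to 13.1 CPM in Jag1+/+ and 8.80 to 14.1 CPM in Jag1Ndr/Ndr libraries, and edgeR called 0 of 6, with 0 at an unadjusted p under 0.05 and 0 by DESeq2. For natural killer cell markers edgeR called 0 of 4 tested, with 1 at an unadjusted p under 0.05 and 0 by DESeq2, at summed levels of 3.65 to 4.996 and 3.94 to 9.68 CPM.

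**Figure D2:**
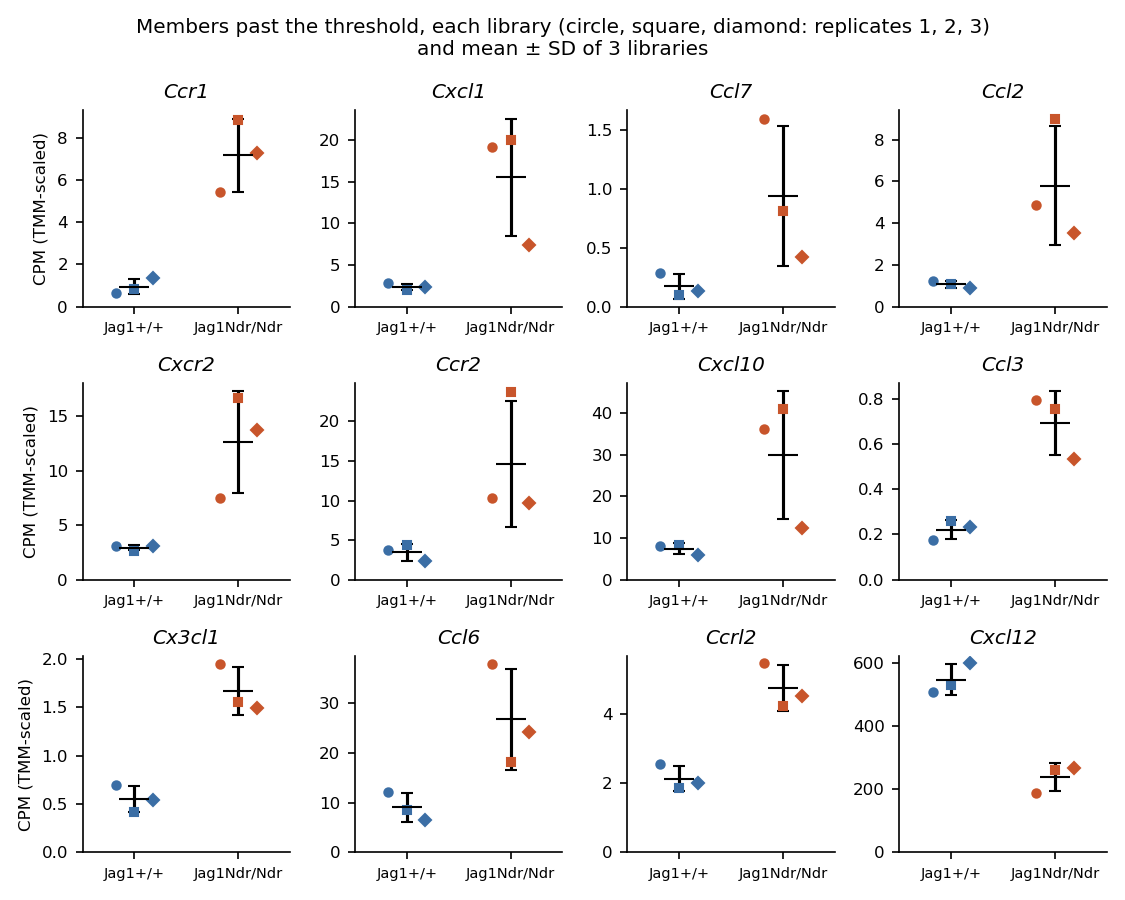
CPM after TMM scaling (y axis, linear from 0, a scale per gene) of the 12 called members in each library, with Jag1+/+ in blue and Jag1Ndr/Ndr in orange; symbols give the replicate and black bars the mean ± SD of 3 libraries. The genotypes do not overlap in any panel, and the Jag1Ndr/Ndr libraries span more than 3-fold for Cxcl10 (12.4 to 41.1 CPM) but little for Ccrl2 (4.22 to 5.49 CPM).

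Among the inflammatory CC ligands, the monocyte attractants Ccl2 and Ccl7 rose, as did Ccl3 and Ccl6, and the other 4 of 8 tested were not called. Ccl2 (chromosome 11, positions 82035577 to 82037452) measured 1.22, 1.07 and 0.904 CPM in Jag1+/+ and 4.87, 9.004 and 3.52 CPM in Jag1Ndr/Ndr replicates 1, 2 and 3. Every Jag1Ndr/Ndr library was at least 2.89-fold above the highest Jag1+/+ library. Ccl2 rose 5.58-fold (log2 fold change 2.48 ± 0.39, edgeR adjusted p = 0.0101), and its adjusted p was 0.0518 without Jag1+/+ replicate 2. Ccl7, which lies beside Ccl2 and shares its receptor, had 5, 3 and 5 reads in Jag1+/+ and 18, 58 and 8 reads in Jag1Ndr/Ndr libraries, or 0.289, 0.0973 and 0.129 against 1.59, 0.813 and 0.426 CPM. Its libraries did not overlap between genotypes, and replicate 1 was the highest in both. The log2 fold change of Ccl7 was 2.49 ± 0.63 (edgeR adjusted p = 0.0494), and its adjusted p was 0.0860, 0.193, 0.201 and 0.0728 without Jag1+/+ replicates 1, 2 and 3, or Jag1Ndr/Ndr replicate 1, 0.0838 with sex as a covariate and 0.0506 with RLE factors.

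Ccr2 (chromosome 9, positions 124101918 to 124109140) is the receptor of Ccl2 and Ccl7 on monocytes. It measured 3.70, 4.38 and 2.30 CPM in Jag1+/+ and 10.3, 23.8 and 9.65 CPM in Jag1Ndr/Ndr libraries. Jag1Ndr/Ndr replicate 2 was the highest for Ccr2 as for Ccl2, Cxcl1, Cxcl10, Ccr1 and Cxcr2. Ccr2 rose 4.28-fold (log2 fold change 2.10 ± 0.41, edgeR adjusted p = 0.0205), with adjusted p-values of 0.0797, 0.0558 and 0.0775 without Jag1+/+ replicates 1, 2 and 3, and 0.0659 once sex was a covariate.

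Ccr1 (chromosome 9, positions 123962126 to 123968692), a receptor of Ccl3, Ccl5, Ccl6 and Ccl9 on neutrophils and monocytes, changed most of the members tested. Ccr1 measured 0.637, 0.844 and 1.34 CPM in Jag1+/+ and 5.40, 8.84 and 7.25 CPM in Jag1Ndr/Ndr replicates 1, 2 and 3. The lowest Jag1Ndr/Ndr library was 4.02-fold above the highest Jag1+/+ library, the widest such gap among the called members. Ccr1 rose 7.44-fold (log2 fold change 2.90 ± 0.34, edgeR adjusted p = 0.00374). Ccr3, the eotaxin receptor of eosinophils in the same cluster, measured 0.926, 4.67 and 1.81 CPM in Jag1+/+ and 0.975, 2.44 and 1.33 CPM in Jag1Ndr/Ndr libraries (log2 fold change -0.59 ± 0.58, edgeR adjusted p = 0.626), and Ccr1l1 had 13 reads in all. Of 7 monocyte markers 3 were higher and 4 were not called; those that passed were F13a1, Plac8 and Fcgr1, whose names were chosen after their values were seen, and the list's summed level was 158 to 235 CPM in Jag1+/+ and 265 to 347 CPM in Jag1Ndr/Ndr libraries. All 3 lost their calls without Jag1+/+ replicates 1, 2 and 3 (adjusted p between 0.0542 and 0.139) or once sex was a covariate (0.0616, 0.0562 and 0.0771), and Fcgr1 also without Jag1Ndr/Ndr replicates 1 and 2 (0.0582 and 0.0666). For Kupffer cell markers edgeR called 0 of 6, with 2 higher at an unadjusted p under 0.05 and 2 by DESeq2. Their summed levels were 502 to 934 CPM in Jag1+/+ and 1098 to 2067 CPM in Jag1Ndr/Ndr libraries. Marco and Cd5l were higher in all Jag1Ndr/Ndr libraries (log2 fold changes 1.85 and 0.96). Clec4f, Vsig4, Timd4 and Emr1 overlapped between the genotypes (log2 fold changes 0.28 to 0.38). The part of these cells in the receptor values was not tested.

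Ccl6 (chromosome 11, positions 83587886 to 83593087) and Ccl9, a pair of related myeloid chemokines that act through Ccr1, lie next to each other and behaved differently. Ccl6 measured 12.1, 8.57 and 6.46 CPM in Jag1+/+ and 37.9, 18.1 and 24.3 CPM in Jag1Ndr/Ndr libraries, without overlap. Ccl6 rose 2.96-fold (log2 fold change 1.57 ± 0.32, edgeR adjusted p = 0.0252), with adjusted p-values of 0.105 and 0.104 without Jag1+/+ replicates 2 and 3, and 0.0548 once sex was a covariate. Ccl9 measured 79.7, 73.4 and 79.1 CPM in Jag1+/+ and 127, 54.3 and 75.6 CPM in Jag1Ndr/Ndr libraries, so that the mutant libraries lay on both sides of the tightly grouped wild-type ones (log2 fold change 0.14 ± 0.28, edgeR adjusted p = 0.827, and -0.26 without Jag1Ndr/Ndr replicate 1). The ratio of Ccl6 to Ccl9 in the deposited RPKM was 0.318, 0.245 and 0.171 in Jag1+/+ and 0.627, 0.699 and 0.672 in Jag1Ndr/Ndr libraries (two-sided exact permutation p = 0.1, the smallest possible). In Jag1Ndr/Ndr libraries this ratio varied little (SD 0.0368 around 0.666, n = 3). The noncoding E230016K23Rik overlaps Ccl6, and reads of the shared bases cannot be told apart.

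Ccl3, a ligand of Ccr1, had few reads: 3, 8 and 9 in Jag1+/+ and 9, 54 and 10 in Jag1Ndr/Ndr libraries, or 0.174, 0.260 and 0.232 against 0.797, 0.757 and 0.533 CPM. Its log2 fold change of 1.60 ± 0.40 passed narrowly (edgeR adjusted p = 0.0485), and Ccl3 lost its call without each library in turn (adjusted p = 0.155, 0.165 and 0.194 without Jag1+/+ replicates 1, 2 and 3, and 0.0688, 0.138 and 0.0623 without Jag1Ndr/Ndr replicates 1, 2 and 3), by DESeq2 (0.0926), without the filter (0.0640) and with sex as a covariate (0.0882). Ccl4, whose annotated span overlaps that of Ccl3 so that their reads are uncertain, measured 0.181 to 0.454 CPM in Jag1+/+ and 0.320 to 0.709 CPM in Jag1Ndr/Ndr libraries (edgeR adjusted p = 0.329). Ccl5, made by T and natural killer cells, measured 5.38, 8.24 and 4.31 CPM in Jag1+/+ and 7.71, 6.51 and 3.63 CPM in Jag1Ndr/Ndr libraries, with a log2 fold change of -0.01 ± 0.34. Ccl24, an eotaxin made by macrophages, measured 13.6, 8.31 and 7.10 CPM in Jag1+/+ and 14.7, 25.7 and 13.3 CPM in Jag1Ndr/Ndr libraries. Only Jag1Ndr/Ndr replicate 3 fell below the highest Jag1+/+ library, and the log2 fold change of 0.91 ± 0.33 did not pass (edgeR adjusted p = 0.137). Markers of mast cells, eosinophils and basophils, the latter cells being the ones that carry the eotaxin receptor together with eosinophils, summed to 18.4 to 58.4 CPM in Jag1+/+ and 22.4 to 96.9 CPM in Jag1Ndr/Ndr libraries, and edgeR called 0 of 4, with 0 at an unadjusted p under 0.05 and 0 by DESeq2.

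Ccl20, the ligand of Ccr6 and an epithelial product, had 1 read over the Jag1+/+ libraries and 4, 42 and 1 reads in Jag1Ndr/Ndr replicates 1, 2 and 3. The ratio of rates was 40.3 (95% exact interval 6.88 to 1624, counting error only), and most of the reads came from Jag1Ndr/Ndr replicate 2, the deepest library, at 0.589 CPM against 0.354 and 0.0533 CPM in replicates 1 and 3. Without the filter edgeR gave Ccl20 an adjusted p of 0.0319. Ccr6 had 28 reads in the Jag1+/+ and 46 in the Jag1Ndr/Ndr libraries, a ratio of 1.41 (0.861 to 2.34). Cholangiocyte markers, of the epithelium that lines bile ducts, summed to 59.9 to 105 CPM in Jag1+/+ and 28.8 to 104 CPM in Jag1Ndr/Ndr libraries, with 0 of 5 called by edgeR, 0 at an unadjusted p under 0.05 and 0 by DESeq2. Most of this sum was Spp1, so its range mainly follows that gene. Of the 5 log2 fold changes, 2 were positive and 3 negative.

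Cxcl12 (chromosome 6, positions 117168535 to 117181368) was the most abundant member per length in every library and the only one called lower. It measured 507, 530.1 and 601 CPM in Jag1+/+ and 188, 260.1 and 268 CPM in Jag1Ndr/Ndr replicates 1, 2 and 3. The highest Jag1Ndr/Ndr library lay well under the lowest Jag1+/+ library. Cxcl12 fell 2.29-fold, its mean going from 546 ± 48.7 to 239 ± 44.3 CPM (± SD of 3 libraries each; log2 fold change -1.19 ± 0.20, edgeR adjusted p = 0.0121). Its value lay between -1.29 and -1.05 over the 13 alternatives, and its adjusted p was 0.0547 and 0.0618 without Jag1+/+ replicates 2 and 3. Its receptor Cxcr4, of haematopoietic and lymphoid cells, measured 13.5, 11.0 and 13.02 CPM in Jag1+/+ and 6.56, 18.2 and 15.4 CPM in Jag1Ndr/Ndr libraries, so that replicate 1 lay below and replicates 2 and 3 above the wild-type range (log2 fold change 0.12 ± 0.33, edgeR adjusted p = 0.885, and -0.17 without Jag1Ndr/Ndr replicate 2 and -0.25 with sex as a covariate). Ackr3, which scavenges Cxcl12, was not called (log2 fold change 0.52 ± 0.29, edgeR adjusted p = 0.342).

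Cell types that could hold Cxcl12 or Cxcr4 were followed by their markers. Sinusoidal endothelial markers summed to 396 to 464 CPM in Jag1+/+ and 398 to 441 CPM in Jag1Ndr/Ndr libraries, with 0 of 5 called by edgeR, 0 at an unadjusted p under 0.05 and 0 by DESeq2. Stellate cell markers summed to 478 to 485 and 406 to 512 CPM, and 1 of 5, Reln, was lower (edgeR adjusted p = 0.0361, between 0.0547 and 0.138 without any single library other than Jag1Ndr/Ndr replicate 2, 0.0809 with sex as a covariate and 0.160 with library totals). Of the other stellate markers, Hand2 and Dcn had all Jag1Ndr/Ndr libraries above the Jag1+/+ ones (log2 fold changes 0.43 and 0.52) and did not pass (adjusted p = 0.192 and 0.106). The stellate list thus went both ways. Of its 5 markers, 2 had all Jag1Ndr/Ndr libraries above the Jag1+/+ ones and 2, Reln among them, had them all below. At an unadjusted p under 0.05 by edgeR, 2 were higher and 2 lower. B cell markers summed to 46.2 to 68.1 and 15.1 to 43.6 CPM, and 1 of 6, Cd79b, was lower (adjusted p = 0.0452, between 0.0607 and 0.143 without any single library other than Jag1Ndr/Ndr replicate 2, and 0.182 with library totals). Hepatocyte markers summed to 209566 to 217387 and 99306 to 177793 CPM, and 1 of 5, Ttr, was lower (adjusted p = 0.0238, and between 0.0697 and 0.104 without Jag1+/+ replicates 1, 2 and 3, or Jag1Ndr/Ndr replicate 3). Reln, Hand2, Dcn, Cd79b and Ttr were named after their values were seen, and the part of these cells in the Cxcl12 value was not tested.

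The make-up of the ligand transcripts shifted with the fall of Cxcl12 and the rise of the inflammatory ligands. In the deposited RPKM, which are per length, Cxcl12 took 69.8%, 70.98% and 76.1% of the summed RPKM of the 27 ligands in Jag1+/+ and 29.5%, 38.5% and 50.7% in Jag1Ndr/Ndr replicates 1, 2 and 3. The genotypes did not overlap, and the mutant libraries spread more widely (SD 10.7 against 3.34 percentage points, n = 3). Cxcl10 and Cxcl1 went from 2.40% ± 0.490 and 0.875% ± 0.135 to 11.1% ± 4.91 and 6.68% ± 2.49 of the sum (mean ± SD), and Ccl6 from 2.23% ± 0.695 to 7.85% ± 2.68. Ccl9 took 8.9% to 9.27% in Jag1+/+ and 7.15% to 16.5% in Jag1Ndr/Ndr libraries, and Ccl5 2.82% to 5.66% and 3.33% to 5.68%. The two-sided exact permutation p was 0.1, the smallest possible, for Cxcl12, Ccl6, Cxcl10 and Cxcl1, and 0.4 and 0.7 for Ccl9 and Ccl5. Cxcl12, Ccl6, Cxcl10 and Cxcl1 had already been called without overlap in CPM, so their shares are not a separate test. Since the shares sum to a whole, they are not independent of each other.

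**Figure D3:**
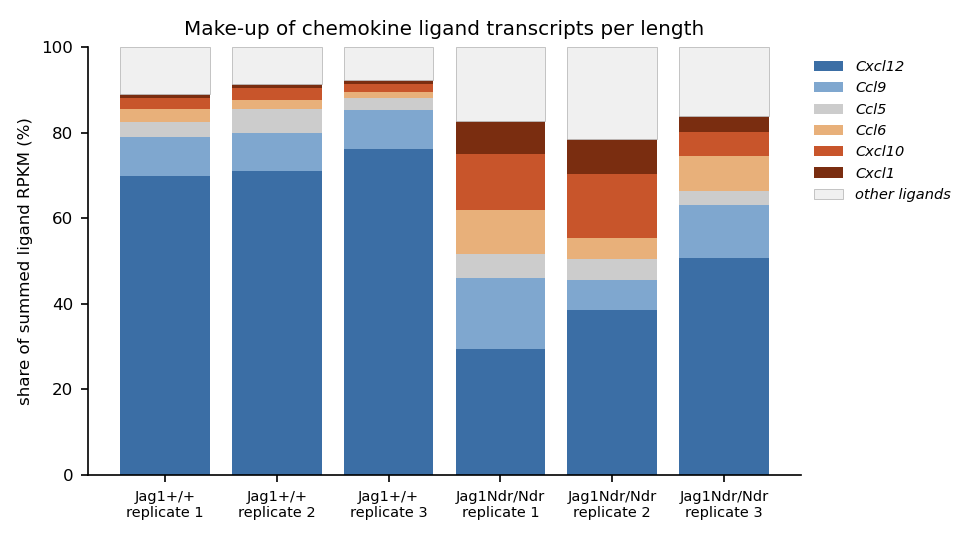
Share of the summed deposited RPKM of the 27 ligands (y axis, percent) in each library (x axis), stacked by ligand, with all further ligands in pale grey. The grey holds Ccl24, at 5.14 to 9.99 RPKM in Jag1+/+ and 8.14 to 31.1 RPKM in Jag1Ndr/Ndr libraries. In Jag1Ndr/Ndr replicate 2 it exceeded Ccl9, Ccl6 and Ccl5, which are drawn. Cxcl12 makes up 69.8% to 76.1% in the Jag1+/+ libraries and 29.5% to 50.7% in the Jag1Ndr/Ndr libraries, where Cxcl10, Cxcl1 and Ccl6 take larger shares.

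Of the other CXC ligands, Cxcl16, a membrane-bound ligand, measured 17.2, 11.4 and 9.74 CPM in Jag1+/+ and 24.7, 14.2 and 17.6 CPM in Jag1Ndr/Ndr libraries, which overlapped (log2 fold change 0.56 ± 0.28, edgeR adjusted p = 0.285). Its receptor Cxcr6, of liver-resident T and natural killer T cells, measured 1.79, 2.43 and 0.930 CPM in Jag1+/+ and 0.443, 0.589 and 0.640 CPM in Jag1Ndr/Ndr libraries. All mutant libraries lay below the wild-type ones, yet the log2 fold change of -1.58 ± 0.43 did not pass by edgeR (adjusted p = 0.0620) and passed by DESeq2 (adjusted p = 0.0262). Cxcr6 lies within the span of Fyco1, so its reads are uncertain. Cxcl13 and Cxcl14 had 22 and 39 reads in all and overlapped between the genotypes. Cxcr5, the Cxcl13 receptor of B cells, measured 0.714 to 1.27 CPM in Jag1+/+ and 0.426 to 1.12 CPM in Jag1Ndr/Ndr libraries (edgeR adjusted p = 0.926).

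Cx3cl1 (chromosome 8, positions 94772180 to 94782427), a membrane-anchored chemokine of endothelium and epithelium, measured 0.695, 0.422 and 0.542 CPM in Jag1+/+ and 1.95, 1.56 and 1.49 CPM in Jag1Ndr/Ndr libraries. The mutant libraries were close together, the highest being 1.31-fold above the lowest. Gm51543 overlaps the annotated span of Cx3cl1, so reads from the shared bases cannot be told apart. Cx3cr1 (Gm33858), Ccl5 (Gm32650), Cxcl16 (Zmynd15), Ccl25 (LOC108167518), Ccr6 (Gm33799), Ccr9 (Gm17021), Ccr10 (Cntnap1) and Cxcr5 (Bcl9l) also overlap other annotated genes. Cx3cl1 rose 3.02-fold (log2 fold change 1.60 ± 0.33, edgeR adjusted p = 0.0263), with adjusted p-values of 0.0686, 0.135, 0.126 and 0.05004 without Jag1+/+ replicates 1, 2 and 3, or Jag1Ndr/Ndr replicate 3, and 0.0660 with sex as a covariate. Its receptor Cx3cr1 is one of monocytes and capsular macrophages. Cx3cr1 measured 3.70, 8.50 and 6.79 CPM in Jag1+/+ and 9.92, 21.9 and 11.6 CPM in Jag1Ndr/Ndr libraries. These did not overlap, but the log2 fold change of 1.20 ± 0.38 did not pass by edgeR (adjusted p = 0.0976) and passed by DESeq2 (adjusted p = 0.0174). Xcl1 and its receptor Xcr1, of cross-presenting dendritic cells, overlapped between the genotypes, with edgeR adjusted p-values of 0.693 and 0.772. Dendritic cell markers summed to 5.35 to 13.6 CPM in Jag1+/+ and 8.74 to 15.3 CPM in Jag1Ndr/Ndr libraries, with 0 of 4 tested called by edgeR, 0 at an unadjusted p under 0.05 and 0 by DESeq2.

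**Figure D4:**
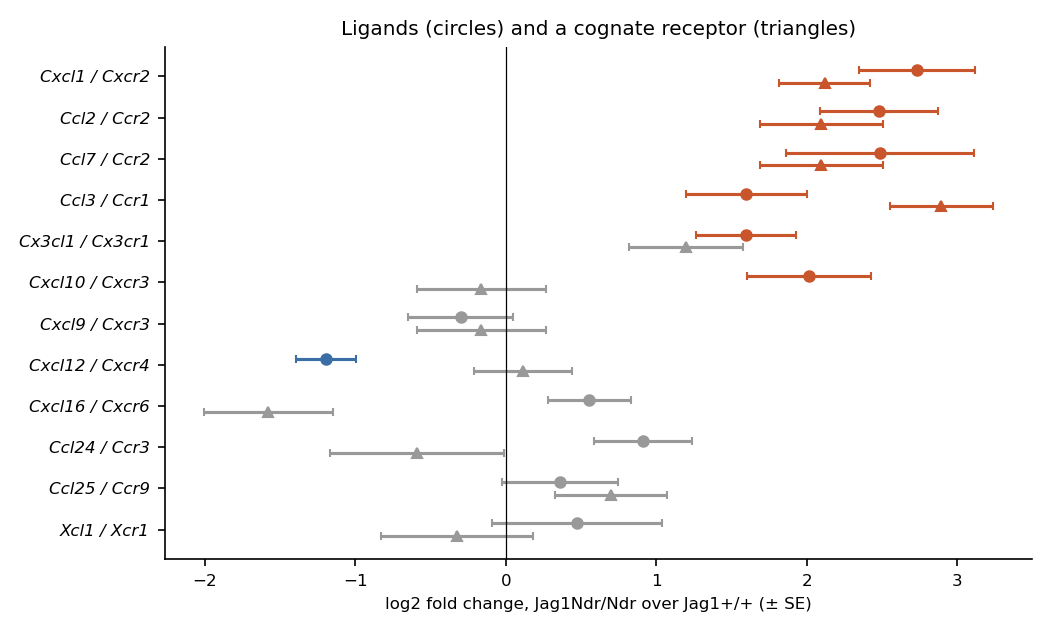
Log2 fold change of Jag1Ndr/Ndr over Jag1+/+ (x axis, bars ± 1 SE) for ligands (circles) and a receptor they are known to bind (triangles), 12 pairs, coloured as called higher (orange), lower (blue) or not called (grey). Cxcl1 with Cxcr2 and Ccl2 with Ccr2 were called higher on both sides. So were Ccl7 with Ccr2 and Ccl3 with Ccr1, but Ccl7 and Ccl3 exceeded the filter's minimum in Jag1Ndr/Ndr libraries only. Cxcl10 and Cx3cl1 rose without a called change in Cxcr3 and Cx3cr1, and Cxcl12 fell without one in Cxcr4. Of further Ccr1 ligands, not drawn, Ccl6 was called higher and Ccl5 and Ccl9 were not called.

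For the homeostatic CC ligands, which guide lymphocytes in the steady state, edgeR called 0 of 3 tested, with 0 at an unadjusted p under 0.05 and 0 by DESeq2. Ccl27a, a skin-associated ligand, measured 0.174, 0.616 and 1.63 CPM in Jag1+/+ and 0.177, 0.323 and 0.640 CPM in Jag1Ndr/Ndr libraries (log2 fold change -1.14 ± 0.73, edgeR adjusted p = 0.413), and overlaps Il11ra1. Ccl22 and Ccl25 had log2 fold changes of 0.16 ± 0.44 and 0.36 ± 0.39, and Ccr7 and Ccr9, the receptors that guide lymphocytes to lymph nodes and gut, of -0.15 ± 0.32 and 0.70 ± 0.37. Ccr9 was higher in all Jag1Ndr/Ndr libraries (0.480 to 0.785 CPM against 0.347 to 0.422 CPM) and did not pass (edgeR adjusted p = 0.322). Of the 71 entries, 18 had no read, among them all entries of Ccl21a, Ccl21b, Ccl21c and Ccl27b, whose near-identical copies can share reads that a counter may discard, so that 0 there does not show absence. Another 8 entries had 1 to 9 reads: Ccl1, Ccl8, Ccl19, Ccl28, Cxcl3, Cxcl17, Ccr8 and Cxcr1. The members not tested beyond those already given, Ccl11, Ccl12, Ccl17, Ccr4 and Ccr10, had 10 to 33 reads in all and overlapped between genotypes.

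Of the atypical receptors, which bind chemokines without G protein signalling, Ccrl2 carries a family symbol and is a member. Ccrl2 (chromosome 9, positions 111054834 to 111057518), which presents the attractant chemerin, measured 2.55, 1.85 and 2.01 CPM in Jag1+/+ and 5.49, 4.22 and 4.53 CPM in Jag1Ndr/Ndr libraries. It rose 2.22-fold (log2 fold change 1.15 ± 0.25, edgeR adjusted p = 0.0309), with adjusted p-values of 0.0704, 0.147, 0.143 and 0.0602 without Jag1+/+ replicates 1, 2 and 3, or Jag1Ndr/Ndr replicate 3, and 0.0707 with sex as a covariate. Of the 6 atypical receptors and platelet chemokines under other symbols (Ackr1 to Ackr4, Pf4 and Ppbp), edgeR called 0, with 1 higher at an unadjusted p under 0.05 and 0 by DESeq2. The platelet chemokines Ppbp and Pf4 went from means of 23.1 and 9.19 CPM in Jag1+/+ to 43.3 and 18.03 CPM in Jag1Ndr/Ndr livers (edgeR adjusted p = 0.273 and 0.237). Megakaryocyte and platelet markers summed to 10.1 to 23.0 CPM in Jag1+/+ and 23.5 to 55.5 CPM in Jag1Ndr/Ndr libraries, with 0 of 4 called by edgeR, 2 higher at an unadjusted p under 0.05 and 1 by DESeq2.

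Chemokine genes lie in clusters, and some called members had neighbours that were tested and not called, while others had only called or untested neighbours. In the receptor cluster of chromosome 9, Ccr1 and Ccr2 were higher while Ccr9, Cxcr6, Xcr1 and Ccr3 were not called and Ccr1l1 was not tested. On chromosome 11, Ccl2 and Ccl7 were higher between positions 82035577 and 82103399, where Ccl11 and Ccl12 were not tested. Ccl6 and Ccl3 were higher between 83525778 and 83664683, where Ccl5, Ccl9 and Ccl4 were not called. On chromosome 5, the neighbours Cxcl5 and Cxcl2 of Cxcl1 were not tested. On chromosome 8, Cx3cl1 was higher between Ccl22, not called, and Ccl17, not tested. The ratio of Ccr1 to Ccr3 in the deposited RPKM was 0.795, 0.209 and 0.859 in Jag1+/+ and 6.41, 4.19 and 6.29 in Jag1Ndr/Ndr libraries (two-sided exact permutation p = 0.1, the smallest possible). Ratios of 4 pairs were computed, with an adjusted p of 0.1 for each; the last, Cxcl1 to Cxcl12, was 0.0107 to 0.0147 in Jag1+/+ and 0.0751 to 0.267 in Jag1Ndr/Ndr libraries. The pairs were chosen after the values were seen.

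**Figure D5:**
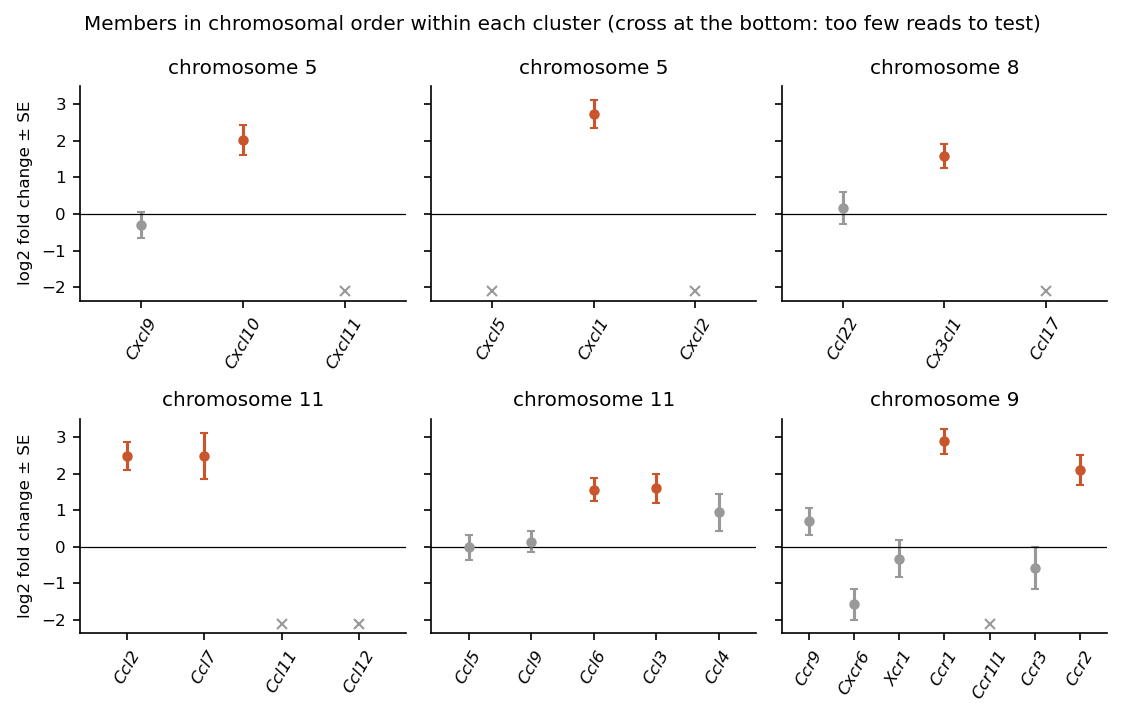
Log2 fold change of Jag1Ndr/Ndr over Jag1+/+ (y axis, bars ± 1 SE) of members in chromosomal order for the 6 clusters with at least 3 members, joined where neighbours lie within 500000 bases; spacing is not to scale and crosses mark members with too few reads to test. In the chromosome 9 cluster Ccr1 at 2.90 and Ccr2 at 2.10 stand among neighbours between -1.58 and 0.70.

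Of 16 inducing cytokines and NF-kB feedback genes, 14 were tested and 4 were higher: the feedback inhibitors Tnfaip3 and Nfkbia, the nuclear co-regulator Nfkbiz and the subunit gene Nfkb2, with log2 fold changes of 1.27 ± 0.19, 0.83 ± 0.16, 1.19 ± 0.21 and 0.89 ± 0.18 (adjusted p by edgeR of 0.00925, 0.0203, 0.0132 and 0.0222). Tnfaip3 kept its call under all 13 alternatives. Nfkbiz and Nfkb2 lost theirs without Jag1+/+ replicate 1 (adjusted p = 0.0608 and 0.0557), replicate 2 (0.0671 and 0.117) and replicate 3 (0.0657 and 0.109), and Nfkbia without replicates 2 and 3 (0.110 and 0.112). Nfkb2 had an adjusted p of 0.0550 once sex was a covariate. The cytokine genes Il1b, Tnf and Il1a were not called (adjusted p = 0.151, 0.209 and 0.703), Il6 was too low to test and Il17a had 0 reads. DESeq2 called 10 of the 14.

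Of 9 leukocyte adhesion genes, 8 were tested and 3 were higher, among them Selp and Sele, adhesion molecules on which leukocytes roll. Selp and Sele had log2 fold changes of 2.34 ± 0.38 and 3.27 ± 0.68 (adjusted p by edgeR of 0.0108 and 0.0266). Selp had an adjusted p of 0.0544 without Jag1+/+ replicate 2, and that of Sele was 0.101, 0.0698 and 0.113 without Jag1+/+ replicates 1, 2 and 3, and 0.0905 once sex was a covariate. Of 17 receptor signalling genes 1 passed, the regulator Rgs1 (log2 fold change 1.79 ± 0.45, edgeR adjusted p = 0.0497), which lost its call without each of Jag1+/+ replicates 1, 2 and 3, or Jag1Ndr/Ndr replicates 2 and 3 (0.0962, 0.168, 0.186, 0.0846 and 0.114), once sex was a covariate (0.103) and with library totals in place of TMM (0.0691). The list had a median log2 fold change of 0.56 and 8 members higher at an unadjusted p under 0.05. Of 7 proteases that cut or shed chemokines 1 passed, Mmp12, a macrophage elastase that trims neutrophil-attracting ligands (2.81 ± 0.40, edgeR adjusted p = 0.00764), and it kept its call under all 13 alternatives.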

How the data were processed

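The authors deposited 1 table with raw read counts per RefSeq gene entry, 1 column per library, and RPKM multiplied by a TMM factor per library, per the file headers. Reads had been aligned with STAR to mm10, per the submitters' processing notes; the counter and versions are not given in the sources used here. Libraries came from a TruSeq RNA kit that does not mark strand. Undoing the header factor gave RPKM proportional to reads for 98.2% of values (within 5%, 10023 genes).

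Counts of 13819 of 24489 entries passed filterByExpr, with 93 further rows for spike-ins and eGFP (5 reads together) removed first, and were tested with edgeR's quasi-likelihood test (edgeR 4.0.16, R 4.3.3; TMM, two-sided, Benjamini-Hochberg, threshold 0.05, all 6 libraries). Each SE was the log2 fold change divided by the square root of F. DESeq2 1.42.0 was an alternative. RPKM were used only for ratios and shares within a library (scipy 1.17.1). On simulated counts for 13819 genes of this comparison 55 of 100 genes with a 2-fold change and 96 of 100 with a 4-fold change were found, as were 7 of 13619 genes with none. Values in every library are given for members that passed, Cxcl1, Ccl2, Cxcr2, members with a mean of at least 5 CPM in a genotype and those with a log2 fold change of at least 1 in size; of the other lists, up to 4 genes that passed or else the 2 most abundant. Il1a, Il1b, Tnf, Ackr3 and some single cell type markers were added after their values were seen. The members and lists were chosen with earlier results of these data known. A few genes count in the totals of members and lists but their values are not reported here.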

Additional observations from a re-analysis of the deposited data

How the results depend on the processing

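The 13 alternatives covered scaling, test, filter, sex, a replicate block and leaving out each library. Of 391 values for the tested members reported one by one, 331 kept their direction and side of the threshold, 41 lost and 3 gained a call, and 16, all of members not called, changed sign. Leaving out 1 library gave 282 to 1211 called genes, 3 to 9 members higher, 0 to 1 lower, 1 to 6 ligands higher and 2 to 4 receptors higher, against 1054, 11, 1, 7 and 4. With sex as a covariate these were 596, 4, 1, 2 and 2. DESeq2 called 1890 genes and 2 members lower. Library totals without TMM shifted the median log2 fold change of all genes up by 0.13 and moved the higher share of calls from 62.0% to 74.3%.

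Leaving out 1 library changed the sign of 8 members, whose log2 fold changes then ran from -0.22 to 0.29 (Ccl5), -0.26 to 0.39 (Ccl9), -0.42 to 0.47 (Ccl22), -1.09 to 0.23 (Ccr3), -0.34 to 0.12 (Ccr7), -0.48 to 0.12 (Cxcr3), -0.17 to 0.42 (Cxcr4) and -0.47 to 0.19 (Cxcr5). With library totals the sign changed for Ccl5 (0.0946) and Cxcr5 (0.0395), and with sex as a covariate for Ccl5 (0.115) and Cxcr4 (-0.25). The causes were not tested. Same-numbered libraries deviated together weakly (r = 0.0856, 0.17 and 0.195 across genes), each correlating best with its own number, and their descriptions in the labels begin with the same number in both genotypes. The labels do not say what that number marks, and 1 of the 3 correlations was below 0.1, so the libraries were not treated as pairs. With the replicate block 1430 genes, 11 members higher and 1 lower were called, Ccl3 losing its call (adjusted p = 0.0779) and Cx3cr1 gaining one (0.0170), as did Ppbp and Pf4 (0.0414 and 0.0160), while Rgs1 (0.0763) and Cd79b (0.0543) lost theirs. Depth limits the 13 members not tested.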
